A study of Mus musculus with 17 samples.

Results

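The nuclear genes for subunits of the oxidative phosphorylation complexes were measured in mouse liver on 2-color arrays. Members were taken by gene symbol alone, namely the Nduf, Sdh, Uqcr, Cox4 to Cox8, and Atp5 symbols, and were kept when a probe was well above background in Cy5 on at least 4 of 17 arrays. Of 82 such symbols 81 were kept, among 19358 genes tested in all, and Cox8c was not. There were 35 genes of complex I, 4 of complex II, 8 of complex III, 17 of complex IV (with Ndufa4, which carries a complex I symbol), and 15 of complex V. The other 2, Atp5s and Atp5sl, carry an ATP synthase symbol but are no subunits of it. The mitochondrially encoded subunits are no members and are given only as a related list. Of the 81 members, 80 were well above background on all 17 arrays, and Cox7b2 was so on 1 chow, 2 1B, 1 HFD, and 4 HFD+1B arrays.

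The livers came from 17 male mice, with 1 array per mouse. Chow mice (n = 4) were fed chow for 3 months and gavaged with maltose, and 1B mice (n = 4) were fed the same diet and received 1 binge gavage of ethanol at 5 g/kg. HFD mice (n = 4) had 3 months of a high-fat diet and a maltose gavage, and HFD+1B mice (n = 5) had the same diet and the ethanol gavage. The labels give the strain of all groups as C57BL/6N and the methods as C57BL/6J, and no genetic change is named for any of them. Total RNA of fresh liver was labeled with Cy5 and hybridized on every array against the same Cy3-labeled reference RNA, with no dye swap. All values are log2 ratios of liver to this reference, so that a level of one gene cannot be set against that of another, and differences between groups are given on the same log2 scale.

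Oxidative phosphorylation takes place in the inner mitochondrial membrane. Complex I takes electrons from NADH and complex II from succinate, both pass them to ubiquinone, complex III hands them to cytochrome c, and complex IV reduces oxygen. The protons pumped by complexes I, III, and IV drive ATP synthesis by complex V. Liver is rich in mitochondria, and the oxidation of ethanol and of fatty acids both deliver NADH to the chain.

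Promoter sequences are shown for the 5 members that were lower in HFD+1B than in HFD mice. More members, and more of all genes, were called in this comparison than in any other. Each window runs from 170 bases before to 30 bases after the transcription start in RefSeq (build GRCm38.p6), 5′ to 3′ on the strand of the gene. Ndufs8 lies at chr19:3912745-3912944 on the minus strand, Ndufv2 at chr17:66101530-66101729 on the minus strand, Ndufb5 at chr3:32736893-32737092 on the plus strand, Sdha at chr13:74350211-74350410 on the minus strand, and Atp5sl, which RefSeq lists as Dmac2, at chr7:25619244-25619443 on the plus strand. Capitals mark a match on either strand to CCGGAAG, a core bound by ETS factors such as GABPA, a subunit of nuclear respiratory factor 2.
Ndufs8: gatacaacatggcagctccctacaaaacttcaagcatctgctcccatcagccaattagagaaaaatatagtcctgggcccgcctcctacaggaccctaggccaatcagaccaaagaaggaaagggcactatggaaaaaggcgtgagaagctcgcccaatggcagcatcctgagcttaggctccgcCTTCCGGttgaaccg
Ndufv2: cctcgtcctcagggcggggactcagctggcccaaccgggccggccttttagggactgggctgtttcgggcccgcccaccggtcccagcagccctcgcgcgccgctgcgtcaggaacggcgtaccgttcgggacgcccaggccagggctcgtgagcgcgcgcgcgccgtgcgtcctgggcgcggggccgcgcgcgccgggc
Ndufb5: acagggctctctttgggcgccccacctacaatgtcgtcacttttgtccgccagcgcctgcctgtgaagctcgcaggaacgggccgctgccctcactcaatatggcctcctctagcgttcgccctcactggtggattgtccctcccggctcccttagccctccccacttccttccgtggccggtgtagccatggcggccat
Sdha: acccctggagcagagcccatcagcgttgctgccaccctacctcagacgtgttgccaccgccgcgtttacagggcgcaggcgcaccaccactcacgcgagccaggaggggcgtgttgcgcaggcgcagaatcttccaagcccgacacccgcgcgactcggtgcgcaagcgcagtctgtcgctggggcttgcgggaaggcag
Atp5sl: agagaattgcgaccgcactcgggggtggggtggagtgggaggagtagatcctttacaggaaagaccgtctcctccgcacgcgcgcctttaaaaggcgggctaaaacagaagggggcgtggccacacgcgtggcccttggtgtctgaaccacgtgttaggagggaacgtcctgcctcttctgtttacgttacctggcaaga

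The Ndufs8 window holds the ETS letters close to its start site, and the 4 others hold no match to any of the 4 motifs searched. A RefSeq promoter was found for 68 of the 81 members. On either strand, the ETS motif CCGGAAG lay in 13 of these windows (19.1%) and in 7.69% of the windows of all 27025 genes, the nuclear respiratory factor 1 motif GCATGCGC in 8 (11.8%) and 2.41%, the YY1 motif AAGATGGC in 3 (4.41%) and 1.8%, and the estrogen-related receptor motif AAGGTCA in 4 (5.88%) and 2.99%. In all, 23 member windows (33.8%) held at least 1 of them, against 14% of all windows. The member windows had a median GC content of 59.5%, and all windows 53.5%. A match is a description of letters only. The 13 members with the ETS motif had a median log2 difference of 0.14 between HFD and chow and of -0.11 between HFD+1B and HFD, and the 55 without it 0.06 and -0.08. With and without the nuclear respiratory factor 1 motif these were 0.13 and -0.10 against 0.07 and -0.08. For YY1 they were 0.09 and -0.10 against 0.06 and -0.08, and for the estrogen-related receptor motif 0.05 and -0.04 against 0.07 and -0.08. When the arrays were centered on their medians in place of loess, the median over all members changed sign in both comparisons (-0.22 and 0.17).

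The arrays lay on 5 slides, each with mice of at least 3 groups. The median Cy5 intensity of an array was 98 to 136 for chow mice, 68.5 to 133 for 1B mice, 62.5 to 96 for HFD mice, and 88 to 156 for HFD+1B mice. The mean log2 ratio of 5 ribosomal RNA probes was 0.22 to 0.56 for chow mice, -1.17 to 0.12 for 1B mice, -3.80 to -2.15 for HFD mice, and -1.02 to 1.11 for HFD+1B mice, so that every HFD array lay below the other arrays in this signal. Of the defining hepatocyte markers, 9 of 9 were well above background on all 17 arrays. Relative to the chow mean, the mean of this list was -0.07 to 0.11 for chow mice, -0.19 to -0.03 for 1B mice, -0.54 to -0.20 for HFD mice, and -0.53 to -0.13 for HFD+1B mice. Of its 9 genes only Apob was called in HFD against chow (-2.76, adjusted p 0.00275 in limma), with a list median of -0.22 and 3 genes above 0. The stellate cell list (10 genes) was at -0.20 to 0.10, 0.09 to 0.25, 0.55 to 0.78, and 0.22 to 1.27 in the same order, and the neutrophil list (9 genes, with S100a8 above background on only 12 arrays) at -0.12 to 0.16, -0.14 to 0.27, -0.27 to 0.32, and 0.09 to 0.50. In HFD+1B against chow only S100a8 (1.46) and S100a9 (1.04) of the neutrophil list were called, and the other 7 were below 0. The means of the macrophage, sinusoidal endothelium, and lymphocyte lists moved within -0.24 to 0.72 over all mice. In HFD against chow 3 of 8, 2 of 9, and 0 of 8 of their genes were called higher and 0 lower. In HFD+1B against HFD 2 endothelial genes were called higher and 4 lower (-1.23 to 1.82), 2 lymphocyte genes higher, and 0 macrophage genes. The adipocyte list reached 0.68 to 1.05 in HFD mice and 0.71 to 0.87 in HFD+1B mice, and in HFD against chow only Cidec and Cidea of its 8 genes were called. The mean of the skeletal muscle list (9 genes, with Ckm above background on only 12 arrays) was -0.12 to 0.17 over all mice. Pvalb, above background on 2 arrays, was not tested. In HFD against chow 1 of the 9 genes of the list was called higher, with differences from -0.40 to 0.46. In HFD+1B against chow 0 were called, with differences from -0.35 to 0.58. In bulk liver, fewer cells of a type and less RNA per cell cannot be told apart, and the part of these shifts in the differences of the members was not tested.

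Most of the 81 members differed little between any groups. A member was called at a Benjamini-Hochberg adjusted p of 0.05 or less in limma, adjusted over all 34664 probes tested, with the brightest probe of each gene. No member passed a threshold of 2-fold with an unadjusted p of 0.05 or less in any comparison (0 of 81, against 1.06% of all genes in 1B against chow, 1.94% in HFD against chow, 2.10% in HFD+1B against HFD, 3.04% in HFD+1B against chow, and 2.20% in the interaction). Without the fold threshold, an unadjusted p of 0.05 or less in limma was reached by 2, 13, 14, 10, and 8 members in these comparisons (2.47%, 16%, 17.3%, 12.3%, and 9.88%), and by 14.8%, 27%, 33.4%, 28.2%, and 20.5% of all genes. The 95% confidence interval of the difference lay within 2-fold in either direction for 80, 81, 81, and 80 members in the 4 comparisons between groups, and within 1.5-fold for 79, 75, 76, and 78. Of all 19358 genes, 96.2%, 93.2%, 92.9%, and 92.2% lay within 2-fold in the same order, and 15193, 13085, 12906, and 13857 genes within 1.5-fold. Half-widths of the intervals of the members had medians of 0.23 to 0.25 on the log2 scale.

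Few members were called in any comparison. More were called in HFD+1B against HFD than elsewhere, and this comparison also had the largest share of calls over all genes (19.3%). In 1B against chow, where 4.15% of all genes were called in either direction, 0 members were called higher (2.14% of all genes) and 1 lower, Atp5sl (2.01%). In HFD against chow (10.9% in either direction), 3 were called higher, Sdha and Ndufa10 among them (4.60% of all genes), and 0 lower (6.28%). In HFD+1B against HFD (19.3% in either direction), 0 were called higher (10.8% of all genes) and 5 lower, Ndufs8, Ndufv2, Ndufb5, Sdha, and Atp5sl (8.43% of all genes). In HFD+1B against chow (16.3% in either direction), 1 was called higher, Cox7a1 (9.01%), and 2 lower, Atp5sl and Ndufs8 (7.28%). The interaction, which is the ethanol difference on HFD minus that on chow, was called for 0 members (4.26% of all genes, 2.53% positive and 1.73% negative). One-way analysis of variance with the Tukey test at an unadjusted p below 0.05 called 1 member higher in 1B than in chow (Ndufa8), 4 higher in HFD than in chow (Sdha, Ndufa10, and Ndufv2 among them), and 5 with a fall in HFD+1B against HFD (Ndufs8, Ndufv2, Ndufb5, Sdha, and Atp5sl). The share of all genes called by this test was not computed, so these counts stand without a background.

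**Figure D1:**
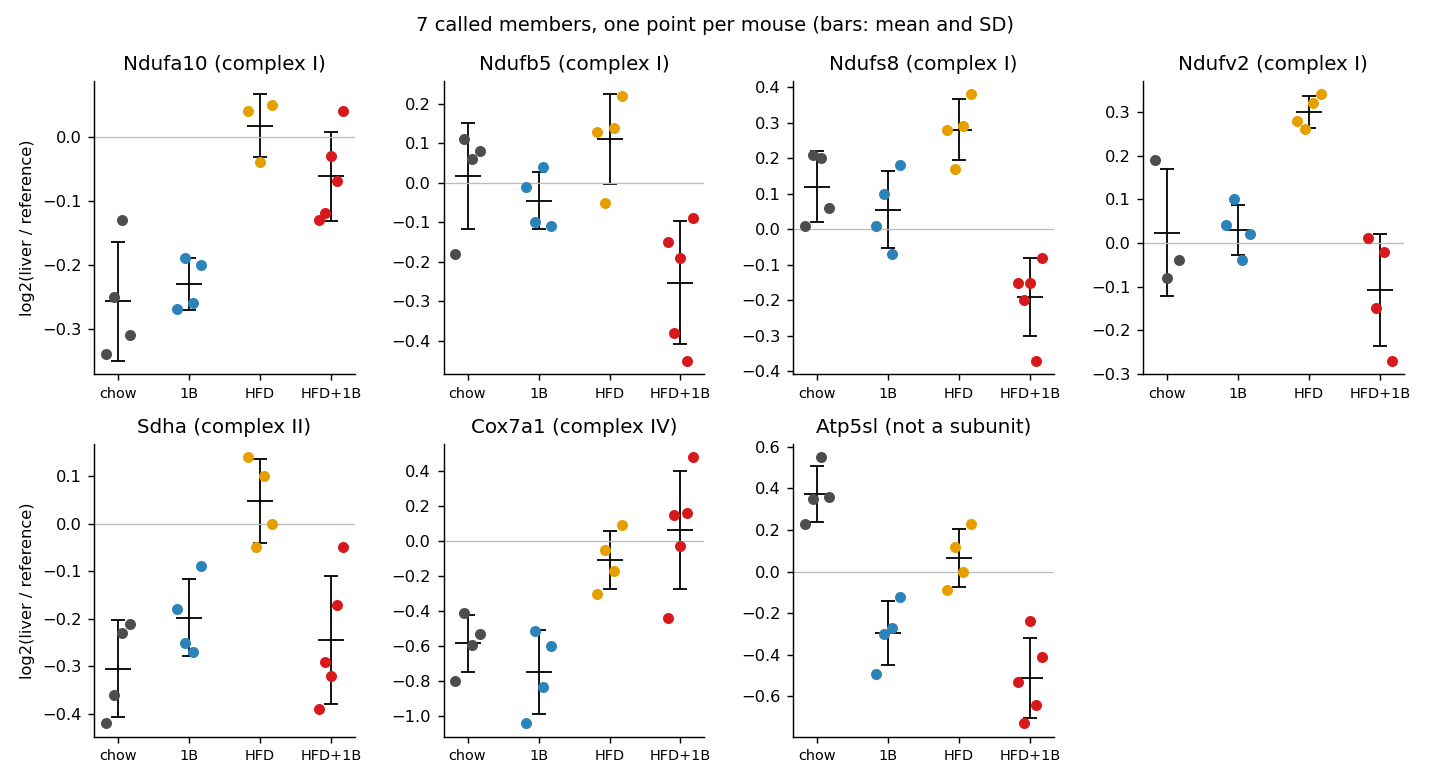
Log2 ratio of liver to reference (vertical axis) for 7 members called in at least 1 comparison, by group (horizontal axis); points are mice and bars the mean with SD. For Ndufs8, all 5 HFD+1B mice (-0.37 to -0.08) lie below all 4 HFD mice (0.17 to 0.38), and for Atp5sl all HFD+1B mice (-0.73 to -0.24) lie below all chow mice (0.23 to 0.55).

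The differences of the members as a list were small. The median log2 difference over the 81 members was -0.01 in 1B against chow, with 45 members below 0, and -0.02 in HFD+1B against chow, with 46 below 0. It was 0.06 in HFD against chow, with 55 members above 0, but -0.22 when the arrays were centered on their medians in place of loess. It was -0.08 in HFD+1B against HFD, with 63 members below 0, but 0.17 with median centering, which also moved the median of all genes from 0.01 to 0.14. Over all 19358 genes tested these medians were 0.01, 0, 0, and 0.01 in 1B, HFD, and HFD+1B against chow and in HFD+1B against HFD, and 9493 genes were below 0 in the last. The 3 comparisons with chow share the chow mice, and HFD against chow and HFD+1B against HFD share the HFD mice with opposite sign, so that 1 set of HFD arrays enters both of the larger shifts. Under median centering, of the 5 falls in HFD+1B against HFD only that of Atp5sl passed (-0.31, adjusted p 0.0478), whereas Ndufs8 was at -0.20, Ndufv2 at -0.10, Ndufb5 at -0.09, and Sdha at -0.05. With Cy5 alone only Ndufs8 passed (-0.40, adjusted p 0.0291), with Ndufv2 at -0.29, Ndufb5 at -0.27, Sdha at -0.16, and Atp5sl at -0.49 (adjusted p 0.0524). The rise of Sdha in HFD against chow did not pass with median centering (0.12), with Cy5 alone (0.21), with the authors' table (0.31), or as the mean of all probes (0.23). Of the 3 members called higher in HFD against chow 0 passed with the authors' table, whereas Atp5a1 (0.55, adjusted p 0.0365) and Atp5s (0.69, adjusted p 0.0377) did.

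The share of genes higher among all genes called moved with the scaling, from 42.3% to 14.3% in HFD against chow, from 56.3% to 89% in HFD+1B against HFD, from 51.5% to 40.4% in 1B against chow, from 55.3% to 66.5% in HFD+1B against chow, and from 59.4% to 93.2% in the interaction with median centering. With Cy5 alone it was 26.8% in HFD against chow and 85% in the interaction.

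The groups did not overlap for 13 members higher in HFD than in chow (9.18% of all genes) and for 0 lower (10.0%), and in HFD+1B against HFD for 6 members lower (7.06%) and 0 higher (8.23%). In 1B against chow 2 were higher (6.30%) and 2 lower (5.59%), and in HFD+1B against chow 2 were higher (8.25%) and 2 lower (7.22%).

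**Figure D2:**
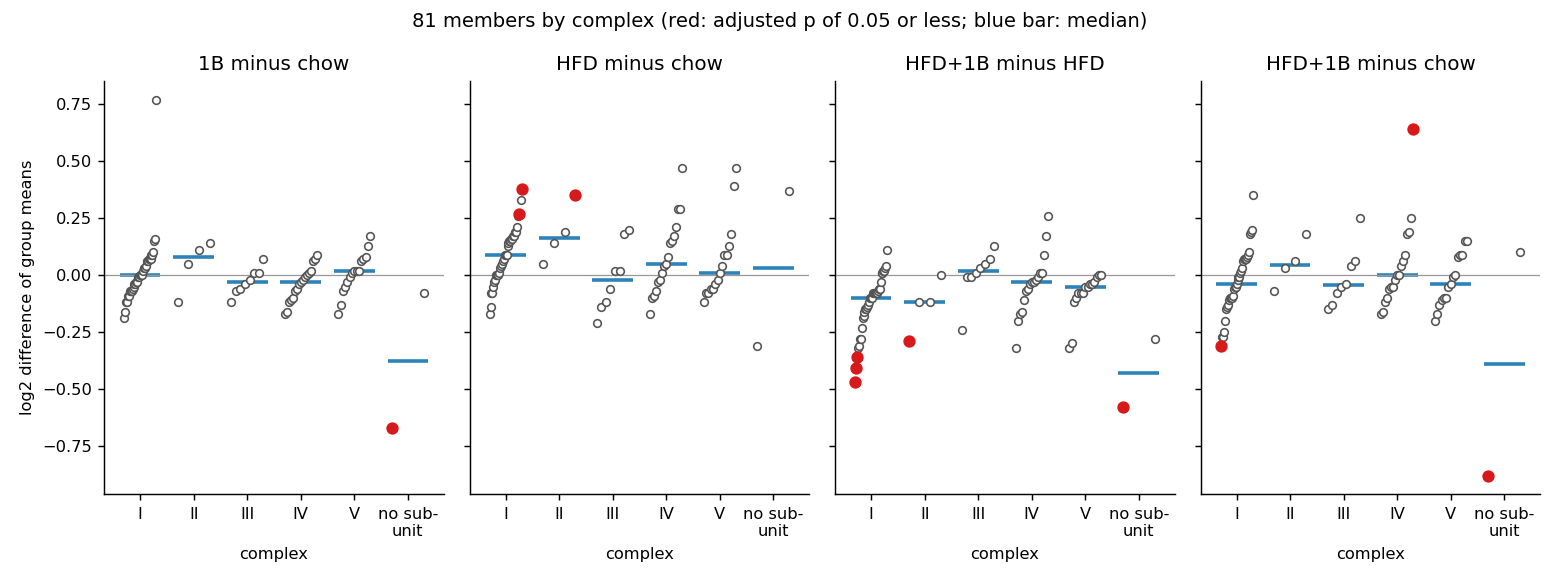
Log2 difference (vertical axis) of each of the 81 members by complex (horizontal axis) in the 4 comparisons between groups; each point is a gene, red where called, and bars are medians. Complexes I and II lie mostly above 0 in HFD minus chow (medians 0.09 and 0.17) and below 0 in HFD+1B minus HFD (-0.10 and -0.12), whereas complex III has medians of -0.02 and 0.02; with median centering the medians of complexes I and II have the opposite sign in both and complex III lies at -0.36 and 0.26.

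By mouse, the median over all members relative to the chow mean was -0.14, 0.03, 0.07, and 0.01 in chow mice and -0.14, 0.05, -0.01, and 0.07 in 1B mice. It was -0.05, 0.09, 0.10, and 0.19 in HFD mice and -0.12, -0.09, 0.09, -0.09, and 0.15 in HFD+1B mice. All groups overlapped, and the mouse on the first slide had the lowest value of each group. Within the slides that held both groups, the median over members of HFD+1B minus HFD was -0.08, 0.06, 0.00, and -0.24, so that it was below 0 by more than rounding on only 2 of 4 slides. Within slides, HFD minus chow had medians of 0.05, 0.04, and 0.10.

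**Figure D3:**
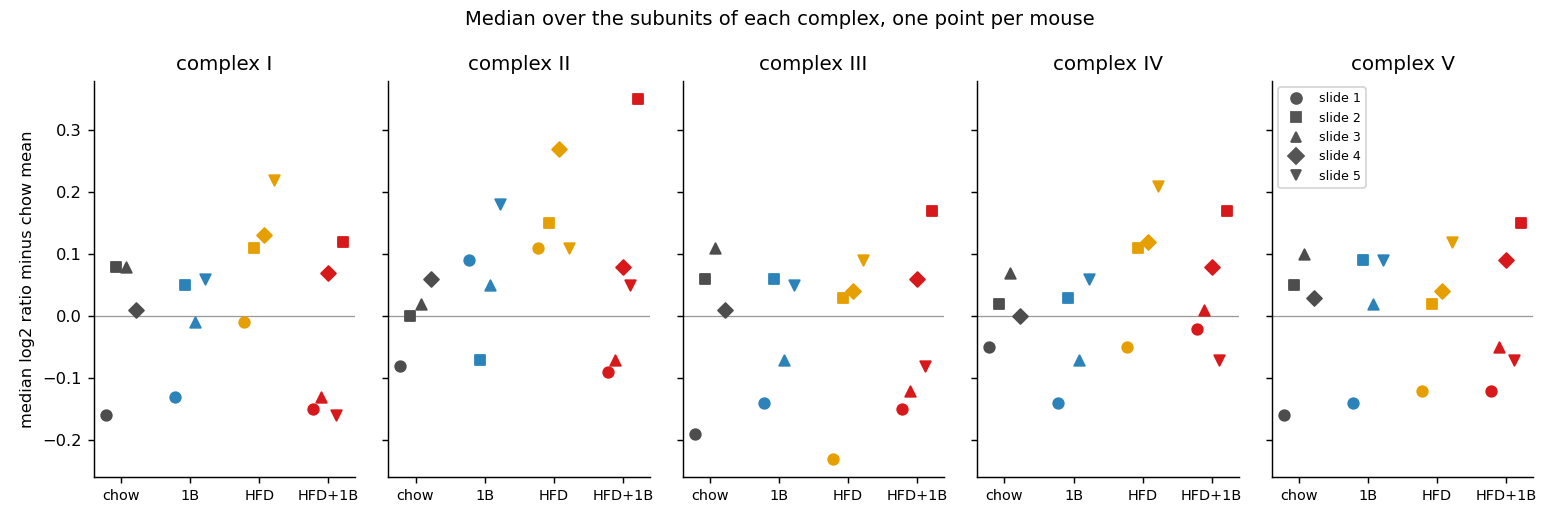
Median log2 ratio over the genes of each complex, relative to the chow mean (vertical axis), for each mouse by group (horizontal axis); marker shapes stand for slides. HFD mice reach 0.22 in complex I and 0.27 in complex II, the groups of HFD and chow mice overlap in complexes I, III, IV, and V, and only in complex II do all HFD mice (0.11 to 0.27) lie above all chow mice (-0.08 to 0.06).

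Complex I, the NADH dehydrogenase, held most of the called subunits and is also the largest set, with 35 genes. In HFD against chow these had a median log2 difference of 0.09 (8 below 0), but of -0.22 with median centering. Of them 2 were called higher, against 4.60% of all genes. In HFD+1B against HFD the median was -0.10 (28 below 0, range -0.47 to 0.11), but 0.15 with median centering. Of the 35 genes 3 were called lower, against 8.43% of all genes. An unadjusted p of 0.05 or less in limma was reached by 7 (20%, against 33.4% of all genes). The 7 genes of its catalytic core had a median of 0.14 in the first and -0.16 in the second comparison, and the 28 accessory genes 0.08 and -0.09. The mean over mice of the complex I median was 0.00 ± 0.11 (SD, n = 4) in chow, -0.01 ± 0.09 (n = 4) in 1B, 0.11 ± 0.09 (n = 4) in HFD, and -0.05 ± 0.13 (n = 5) in HFD+1B mice, shifts of about the size of the spread between mice.

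Ndufs8, a core subunit that carries iron-sulfur clusters on the path of the electrons to ubiquinone, differed the most by p among the subunits. Its log2 ratio was 0.01, 0.21, 0.20, and 0.06 in chow mice and 0.01, 0.10, -0.07, and 0.18 in 1B mice. It was 0.28, 0.17, 0.29, and 0.38 in HFD mice and -0.15, -0.20, -0.15, -0.37, and -0.08 in HFD+1B mice. All HFD+1B mice lay below every mouse of the chow and HFD groups, and the chow and HFD groups overlapped. It fell by 0.47 in HFD+1B against HFD (SE 0.08, 95% interval -0.65 to -0.30, 1.39-fold, adjusted p 0.00111 in limma). Against chow it fell by 0.31 (SE 0.08, 1.24-fold, adjusted p 0.0159, but 0.161 with median centering), whereas HFD minus chow was 0.16 with an interval from -0.03 to 0.34. Within the 4 slides with both groups, HFD+1B minus HFD was -0.43, -0.26, -0.44, and -0.75. The interaction of -0.41 (95% interval -0.66 to -0.15) did not pass (adjusted p 0.067).

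Ndufv2, an iron-sulfur subunit of the NADH-oxidizing module, had log2 ratios of 0.28, 0.26, 0.32, and 0.34 in HFD mice and of 0.01, -0.15, -0.02, and -0.27 in the 4 HFD+1B mice with a value. The 3 chow mice with a value were at 0.19, -0.08, and -0.04, and the 1B mice at 0.04, 0.10, -0.04, and 0.02. The HFD mice were tightly grouped above all mice of the other groups. The gene fell by 0.41 in HFD+1B against HFD (SE 0.09, 95% interval -0.60 to -0.22, 1.33-fold, adjusted p 0.00514 in limma), and HFD minus chow was 0.27 (adjusted p 0.0829). A second, dim probe, above background on 8 arrays, gave 0.00.

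Ndufb5, an accessory subunit of the membrane arm, was at 0.13, -0.05, 0.14, and 0.22 in HFD mice and at -0.15, -0.38, -0.19, -0.45, and -0.09 in HFD+1B mice. In chow mice it was -0.18, 0.11, 0.06, and 0.08, and in 1B mice -0.01, -0.10, 0.04, and -0.11. The HFD and HFD+1B groups did not overlap, whereas 1 chow mouse lay among the HFD+1B mice. It fell by 0.36 in HFD+1B against HFD (SE 0.09, 95% interval -0.56 to -0.16, 1.28-fold, adjusted p 0.0129 in limma), and its difference from chow was -0.27 (adjusted p 0.0667). Within slides, HFD+1B minus HFD ranged from -0.66 to -0.04.

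In HFD against chow no member was called higher without chow mouse 1. Ndufa10, an accessory subunit of the membrane arm, was at -0.34, -0.25, -0.13, and -0.31 in chow mice and at 0.04, -0.04, and 0.05 in the 3 HFD mice with a value. It rose by 0.27 (SE 0.08, 1.21-fold, adjusted p 0.0474), but with median centering the difference was -0.04 and with Cy5 alone -0.06. That call was the least stable, kept in 3 of 17 fits that each left out 1 mouse.

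Several other complex I genes stood just outside the threshold. In HFD+1B against HFD, Ndufb10 (log2 difference -0.32, adjusted p 0.0655), Ndufa11 (-0.31, adjusted p 0.0701), Ndufa3 (-0.28, adjusted p 0.101), and Ndufb6 (-0.23, adjusted p 0.142) reached an unadjusted p of 0.05 or less in limma, and were named after their values had been seen. With the slide as a block Ndufb10 and Ndufa11 passed (adjusted p 0.0435 and 0.0243). Ndufs1, the largest core subunit and a carrier of iron-sulfur clusters, differed by 0.13 in HFD against chow (95% interval -0.14 to 0.40) and by -0.12 in HFD+1B against HFD (-0.39 to 0.15). For Ndufv1, which binds NADH and flavin, the differences were -0.08 (-0.32 to 0.16) and 0.03 (-0.19 to 0.26). Ndufb8 had a dimmer probe that was called in HFD+1B against HFD (-0.57, adjusted p 0.0112), whereas its brightest probe gave 0.02.

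Ndufa8, an accessory subunit rich in cysteine, was the member with the largest difference between 1B and chow. It was at -0.60, -0.33, and -0.53 in the 3 chow mice with a value and at 0.22, 0.07, 0.08, and 0.77 in 1B mice. The difference was 0.77 (SE 0.21, 95% interval 0.32 to 1.22, adjusted p 0.0582 in limma), and the groups did not overlap. A dimmer probe gave 0.71 with a smaller error and passed (SE 0.11, adjusted p 0.00111), and was also higher in HFD than in chow (0.43, adjusted p 0.0232). In HFD+1B mice the brightest probe ranged from -0.65 to 0.44, and HFD+1B minus HFD was 0.02. The interaction was -0.75 on the brightest probe (adjusted p 0.163) and -0.95 on the dimmer one (SE 0.16, adjusted p 0.00438). Over all members, 26 had more than 1 probe tested, and 0 had probes called in opposite directions.

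**Figure D4:**
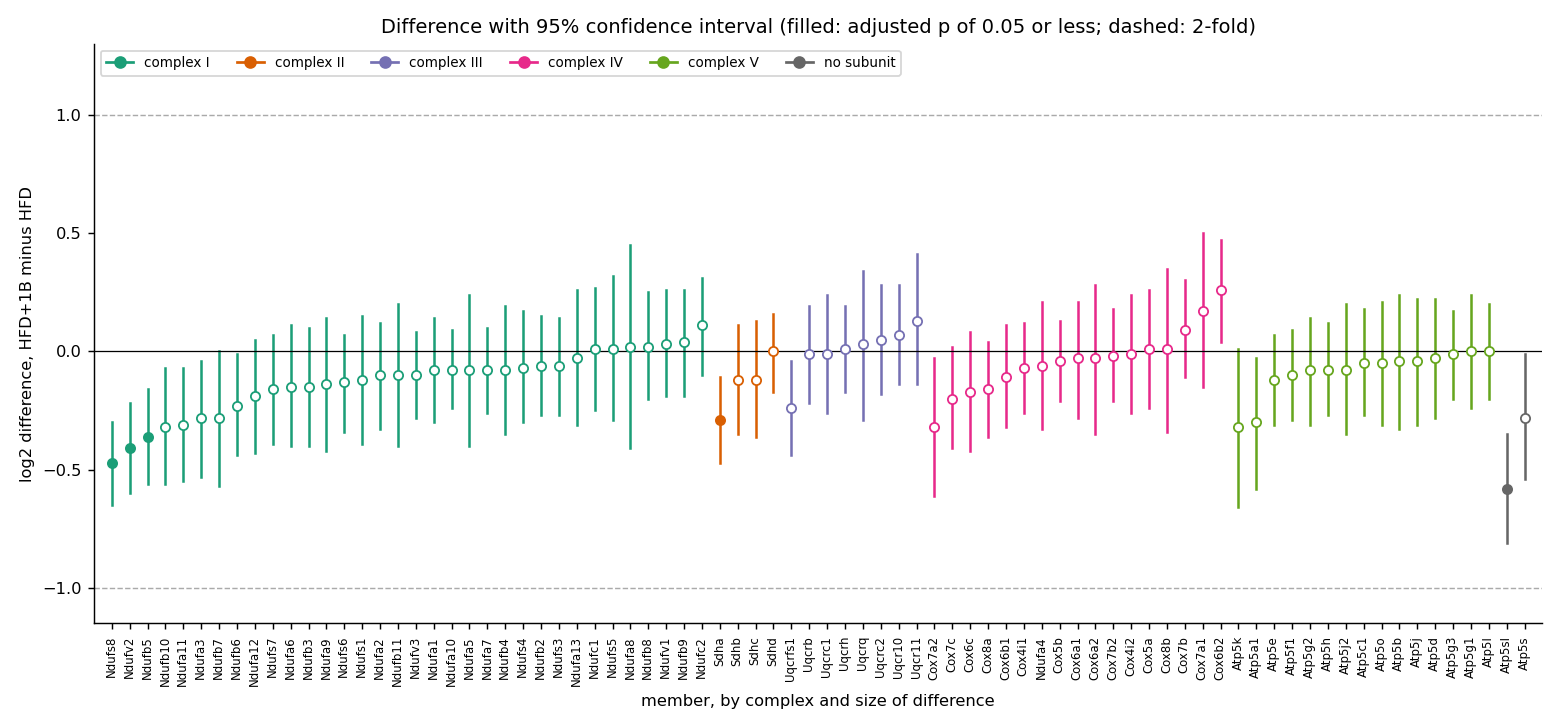
Log2 difference between HFD+1B and HFD (vertical axis) with its 95% confidence interval for 80 of the 81 members (horizontal axis), ordered within complexes, colored by complex, and filled where called. All intervals drawn stay within 2-fold in either direction, and Atp5sl (-0.58), Ndufs8 (-0.47), and Ndufv2 (-0.41) lie farthest from 0.

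Complex II, succinate dehydrogenase, is also an enzyme of the citric acid cycle, and its 4 subunits had a median log2 difference of 0.17 in HFD against chow (0 of 4 below 0) and of -0.12 in HFD+1B against HFD, but of -0.12 and 0.19 with median centering. One was called in each comparison, and both times it was Sdha, the flavoprotein that oxidizes succinate. Sdha was at -0.42, -0.36, -0.23, and -0.21 in chow mice and at -0.18, -0.25, -0.27, and -0.09 in 1B mice. In HFD mice it was 0.14, -0.05, 0.10, and 0.00, and in HFD+1B mice -0.39, -0.29, -0.32, -0.17, and -0.05. All HFD mice lay above all chow mice, whereas the lowest HFD mouse and the highest HFD+1B mouse were equal to 2 decimals. It rose by 0.35 in HFD against chow (SE 0.09, 95% interval 0.16 to 0.54, 1.27-fold, adjusted p 0.0199 in limma) and fell by 0.29 in HFD+1B against HFD (SE 0.08, 95% interval -0.47 to -0.11, 1.22-fold, adjusted p 0.025). A second probe of similar brightness gave 0.39 (adjusted p 0.021) and -0.36 (adjusted p 0.015), and the last, a dim probe, -0.05 and 0.03. The interaction was -0.40 (adjusted p 0.0769). Within slides, HFD+1B minus HFD was -0.53, 0.00, -0.41, and -0.17, and HFD minus chow 0.56, 0.30, and 0.31.

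The other complex II subunits were not called. For Sdhb, the iron-sulfur subunit, HFD+1B minus HFD was -0.12 (95% interval -0.35 to 0.11), and for the membrane anchor Sdhc it was -0.12 (-0.36 to 0.13). Sdhd, the other anchor, was at -0.08 to 0.00 in chow mice and at 0.06 to 0.19 for 1B, 0.08 to 0.23 for HFD, and 0.01 to 0.37 for HFD+1B mice. None of these 3 groups overlapped the chow mice, yet the differences from chow of 0.14, 0.19, and 0.18 had adjusted p values of 0.517, 0.175, and 0.155 in limma.

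Complex III, the cytochrome bc1 complex, held 0 called genes of 8 in limma, with 0 at an unadjusted p of 0.05 or less in HFD against chow and 1 in HFD+1B against HFD. Its median log2 differences were -0.02 and 0.02 in these comparisons, -0.36 and 0.26 with median centering, and 0.04 and -0.16 with Cy5 alone. That 1 was Uqcrfs1, the Rieske iron-sulfur protein, at 0.33, 0.40, 0.44, and 0.34 in HFD mice and at 0.03, -0.08, 0.27, 0.17, and 0.31 in HFD+1B mice. These groups did not overlap, and the difference was -0.24 (95% interval -0.44 to -0.04, adjusted p 0.0856 in limma). The core protein Uqcrc1 differed by -0.14 in HFD against chow (95% interval -0.40 to 0.13) and by -0.01 in HFD+1B against HFD (-0.26 to 0.24). Uqcr10, a small accessory subunit, had a difference of 0.25 between HFD+1B and chow (adjusted p 0.0985), with no overlap of the groups. Cyc1, the cytochrome c1 of the complex, lies outside the symbols used and was not called (-0.17 and 0.13).

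Complex IV, cytochrome c oxidase, has subunits that occur as pairs of isoforms, with a form found in liver and many tissues and another that is mostly found in heart, skeletal muscle, lung, or testis. The 10 forms of wide use had a median log2 difference of 0.14 in HFD against chow and of -0.09 in HFD+1B against HFD, and the 6 forms of restricted use -0.08 and 0. The median over all 17 genes was 0.05 and -0.03, but -0.12 and 0.16 with median centering. Of these 17 genes 0 were called in either comparison in limma, with 3 and 2 at an unadjusted p of 0.05 or less. The only call was Cox7a1, the heart and muscle form of its subunit. It was at -0.80, -0.41, -0.59, and -0.53 in chow mice and at -1.04, -0.51, -0.83, and -0.60 in 1B mice. In HFD mice it was -0.30, -0.05, -0.17, and 0.09, and in HFD+1B mice -0.44, 0.15, -0.03, 0.16, and 0.48. Both HFD-fed groups were higher than the chow-fed groups in all but 1 mouse, HFD+1B mouse 1, which overlapped the chow range. Cox7a1 rose by 0.64 in HFD+1B against chow (SE 0.15, 95% interval 0.32 to 0.97, 1.56-fold, adjusted p 0.00731 in limma), and HFD minus chow was 0.47 (95% interval 0.13 to 0.81, adjusted p 0.0728, but 0.0202 with the slide as a block). The rise also passed with median centering (0.69) but not with Cy5 alone (0.60, adjusted p 0.112). Within the 4 slides with both groups, HFD+1B minus chow was 0.36, 0.89, 0.74, and 0.50. The skeletal muscle and adipocyte marker values given above stand beside this gene, and their part in its difference was not tested.

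For its counterpart Cox7a2, the form of liver, HFD minus chow was 0.15 and HFD+1B minus HFD was -0.32 (95% interval -0.61 to -0.03, adjusted p 0.122 in limma). Cox6a1 and Cox6b1, the widely used forms, each had a difference of 0.29 between HFD and chow (adjusted p 0.152 and 0.0969), and their counterparts Cox6a2 and Cox6b2 had -0.02 and -0.07. Cox6b2, the testis form, was the member with the largest positive difference between HFD+1B and HFD, 0.26 (95% interval 0.04 to 0.47, adjusted p 0.0967). It was called with no background subtraction (0.36, adjusted p 0.0411) and with the authors' table (0.81, adjusted p 0.00111). The differences of Cox4i1, the regulatory subunit, were 0.05 and -0.07, and those of Cox4i2, its lung form, -0.09 and -0.01. Cox5a differed by 0.08 and 0.01, Cox8a by 0.21 and -0.16, and Cox8b, its heart and muscle form, by -0.17 and 0.01. Ndufa4, now counted as a subunit of complex IV, had 0.01 and -0.06.

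Complex V, the ATP synthase, had a median log2 difference of 0.01 in HFD against chow, and of -0.05 in HFD+1B against HFD, where 14 of 15 genes were below 0 and the lowest was at -0.32, but -0.30 and 0.19 with median centering. The mean over mice of the complex V median hardly differed between groups. It was 0.01 ± 0.11 (SD, n = 4) in chow, 0.01 ± 0.11 (n = 4) in 1B, 0.01 ± 0.10 (n = 4) in HFD, and 0.00 ± 0.11 (n = 5) in HFD+1B mice. In limma 0 of the 15 genes were called in HFD against chow or in HFD+1B against HFD, with 2 and 1 at an unadjusted p of 0.05 or less. Atp5a1, the alpha subunit of the catalytic head, was at 0.27, 0.03, 0.12, and -0.01 in chow mice and at 0.33, 0.48, and 0.67 in the 3 HFD mice with a value. These groups did not overlap, with a difference of 0.39 (95% interval 0.11 to 0.68, adjusted p 0.0772 in limma), and HFD+1B minus HFD was -0.30 (-0.58 to -0.03, adjusted p 0.115). Atp5a1 passed in HFD against chow with the authors' table (0.55), and without HFD+1B mouse 5 it passed in both comparisons (adjusted p 0.0408 and 0.024). Atp5b, the catalytic beta subunit, differed by 0.13 and -0.04 on its brightest probe, and a second bright probe was higher in HFD than in chow (0.36, adjusted p 0.0479). Atp5k, the membrane subunit e, had the joint largest difference of a member between HFD and chow, 0.47 (adjusted p 0.0823), with HFD mouse 4 at 0.76 and the other HFD mice at -0.20 to 0.13. The genes Atp5g1, Atp5g2, and Atp5g3 encode the same mature ring subunit c, and differed by -0.06, 0.04, and 0.09 in HFD against chow and by 0.00, -0.08, and -0.01 in HFD+1B against HFD. Atp5f1, the peripheral stalk subunit b, had -0.10 on its brightest probe and -0.31 on a dimmer one that passed (adjusted p 0.0124).

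The member called in more comparisons than any other was not a subunit. Atp5sl, by its current name Dmac2, is known as a factor for the assembly of the distal membrane arm of complex I. Its log2 ratio was 0.23, 0.35, 0.55, and 0.36 in chow mice and -0.49, -0.30, -0.27, and -0.12 in 1B mice. In HFD mice it was -0.09, 0.12, 0.00, and 0.23, and in HFD+1B mice -0.53, -0.73, -0.24, -0.64, and -0.41. Ethanol-treated mice of either diet lay below all mice of the same diet that received maltose. It fell by 0.67 in 1B against chow (SE 0.11, 95% interval -0.91 to -0.42, 1.59-fold, adjusted p 0.00223 in limma) and by 0.58 in HFD+1B against HFD (95% interval -0.81 to -0.35, 1.49-fold, adjusted p 0.00168). From chow to HFD+1B it fell by 0.88 (95% interval -1.11 to -0.65, 1.85-fold, adjusted p 2.53e-05). HFD minus chow was -0.31 (95% interval -0.55 to -0.06, adjusted p 0.0995), and the interaction 0.09 (adjusted p 0.812). Within slides, 1B minus chow was -0.71, -0.66, and -0.81, and HFD+1B minus HFD ranged from -0.87 to -0.24. A second, dimmer probe gave -0.41 in 1B against chow (adjusted p 0.018), -0.43 in HFD against chow (adjusted p 0.00757), and -0.16 in HFD+1B against HFD (adjusted p 0.241). Atp5s, the other gene of this kind, had 0.37 in HFD against chow (adjusted p 0.0852) and -0.28 in HFD+1B against HFD (adjusted p 0.141).

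Lists of related genes are given as counts and medians beside the members. Over all genes, 4.60% were called higher and 6.28% lower in HFD against chow. These shares were 10.8% and 8.43% in HFD+1B against HFD, and 9.01% and 7.28% in HFD+1B against chow. The 4 mitochondrially encoded subunits tested (ND4, CYTB, COX2, and ATP6) had median log2 differences of 0.11 in HFD against chow and -0.07 in HFD+1B against HFD, but -0.28 and 0.22 with median centering, with 0 called in limma in either and 1 and 0 at an unadjusted p of 0.05 or less. Among 7 genes close to the complexes but outside the symbols, Uqcc2, a complex III assembly factor, rose by 0.36 in HFD against chow (adjusted p 0.0289 in limma) and fell by 0.31 in HFD+1B against HFD (adjusted p 0.029). Cox7a2l, which joins complexes III and IV, fell by 0.27 in the latter (adjusted p 0.0178). With median centering, with the authors' table, and with Cy5 alone 0 of these 7 genes were called lower in that comparison, and the rise of Uqcc2 was 0.13 with median centering and 0.32 with Cy5 alone, neither called. Atpif1, the inhibitor of complex V, rose by 0.47 in HFD+1B against chow (adjusted p 0.0315), a comparison in which 0 of the 7 were called with the authors' table or with Cy5 alone.

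Several subunits, among them those of the c ring, have close paralogs or processed pseudogenes, and cross-hybridization of their probes was not tested.

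Of 38 assembly factors, 2 rose and 2 fell in HFD against chow (1 and 5 with median centering, 0 and 0 with Cy5 alone), and 1 rose and 9 fell in HFD+1B against HFD, with a median of -0.13, but with median centering 6 were higher and 1 lower, with a median of 0.09. Ndufaf3, a complex I assembly factor named after its values had been seen, was at -0.39 to -0.12 in chow, 0.29 to 0.53 in HFD mice, and -0.57 to -0.07 in HFD+1B mice. It rose by 0.62 in HFD against chow (adjusted p 0.00261 in limma) and fell by 0.73 in HFD+1B against HFD (adjusted p 0.000287), and its interaction of -0.84 passed (adjusted p 0.00942). Bcs1l, which inserts the Rieske protein into complex III and was also named after its values had been seen, fell by 0.52 in HFD+1B against HFD (adjusted p 0.000362). The copper chaperone of complex IV Cox17 went the other way, with -0.70 in HFD against chow (adjusted p 0.0242) and 1.05 in HFD+1B against HFD (adjusted p 0.000828), although with Cy5 alone the former was -0.05. The values of Ndufaf3 and Bcs1l, and that of Cox17 in HFD+1B against HFD, were not examined under other settings. Cox19, of the same copper pathway, rose by 0.69 in HFD and by 1.08 in HFD+1B against chow (adjusted p 0.0308 and 0.000531), and Ndufaf4 fell by 0.54 in HFD+1B against chow (adjusted p 0.0176).

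The 77 mitochondrial ribosomal protein genes, which serve the translation of the mitochondrially encoded subunits, had a median of 0.14 in HFD against chow (4 higher and 1 lower), and of -0.23 in HFD+1B against HFD, where 70 of 77 were below 0, 15 were called lower, and 1 higher. With median centering these medians were -0.06 and 0.03, and 4 fell and 2 rose in HFD+1B against HFD. Mrps14 fell by 0.80 in the latter (adjusted p 0.000175 in limma), and Mrps12 rose by 0.58 in HFD against chow (adjusted p 0.02) but had -0.14 with Cy5 alone. Of 15 regulators of mitochondrial biogenesis, Tfam, the mitochondrial transcription factor, fell by 0.76 in HFD against chow (adjusted p 0.0229, -0.19 with Cy5 alone) and rose by 1.14 in HFD+1B against HFD (adjusted p 0.00103). The values of Mrps14 and Tfam in HFD+1B against HFD were not examined under other settings. Ppara, a regulator of fatty acid oxidation, fell by 1.09 (adjusted p 0.00699) and Tfb1m by 0.65 (adjusted p 0.00131) in HFD+1B against chow.

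**Figure D5:**
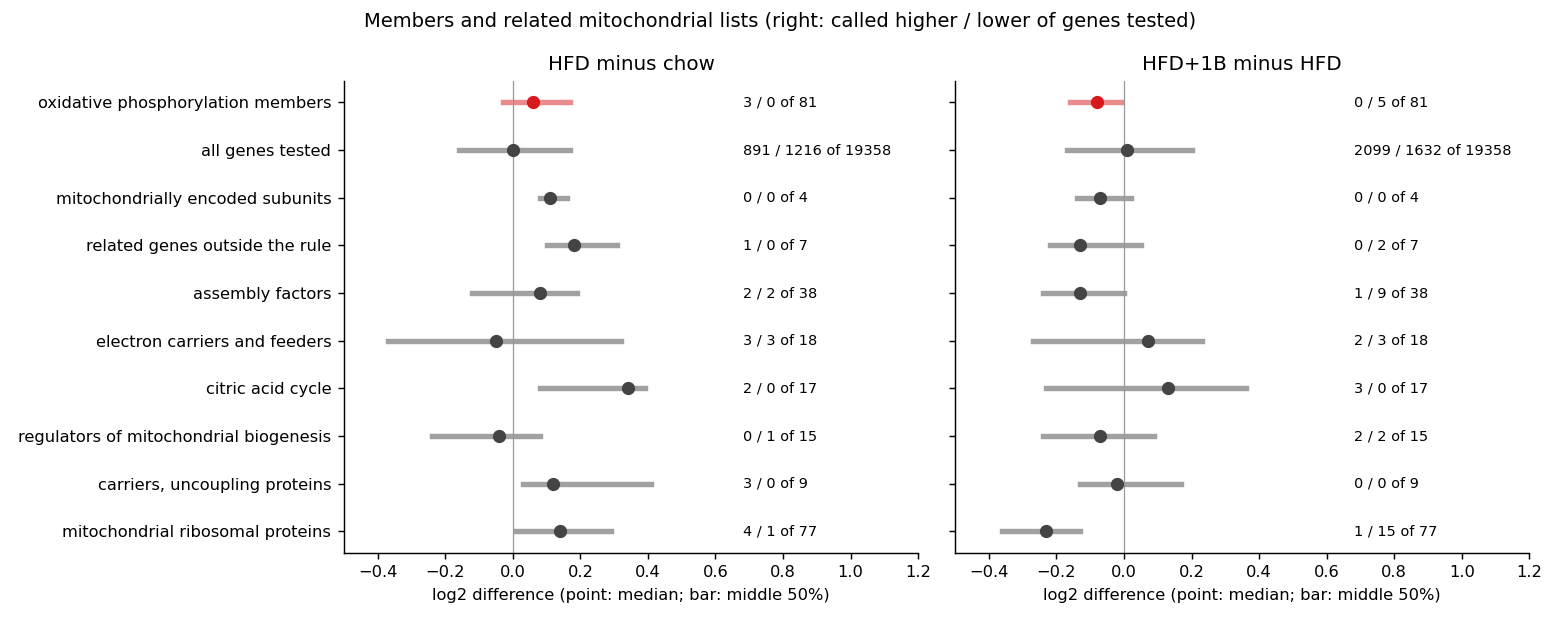
Median log2 difference with the middle 50% of genes (horizontal axis) by list (vertical axis) for the members, all genes tested, and 8 related lists, in HFD minus chow and in HFD+1B minus HFD, with the counts of genes called higher and lower. The mitochondrial ribosomal list lies at -0.23 and the members at -0.08 in HFD+1B minus HFD, where 0 members were called higher and 5 lower; with median centering these medians were 0.03 and 0.17.

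Among the 17 genes of the citric acid cycle and pyruvate dehydrogenase, 7 rose and 0 fell in HFD+1B against chow, with a median of 0.23 (0.30 and 4 called higher with median centering). Pdhb, a subunit of pyruvate dehydrogenase, rose by 1.83 in 1B against chow (adjusted p 1.23e-06 in limma) and by 1.52 in HFD+1B against chow (adjusted p 4.65e-07). Its log2 ratio was -1.50 to -1.20 in chow and -1.12 to -0.77 in HFD mice, and 0.30 to 0.70 in 1B and -0.24 to 0.37 in HFD+1B mice, with no overlap of ethanol and maltose groups. Fumarate hydratase, Fh1, rose by 0.98 and 1.12 in the same comparisons (adjusted p 0.000537 and 2.27e-05). Dld and Suclg1 rose by 0.50 and 0.46 in HFD against chow (adjusted p 0.0132 and 0.00705), but by 0.31 and 0.19 with median centering, where neither passed and 2 genes of the list were called lower. Among the carriers and uncoupling proteins (9 genes), Ucp2 rose by 1.72 in HFD (adjusted p 0.00143) and by 2.04 in HFD+1B against chow (adjusted p 5.93e-05), and the ADP/ATP carrier Slc25a5 by 0.43 and 0.30 (adjusted p 0.00828 and 0.0295). Under 29 other settings, the 2-fold threshold among them, the Slc25a5 differences ran from 0.09 to 0.48 and from 0.14 to 0.34. Its calls were lost in 4 and 12 of these settings. Among 18 electron carriers and feeding enzymes, 3 were higher and 3 lower in HFD than in chow (1 and 4 with median centering, 0 and 1 with Cy5 alone), among them Coq7 of ubiquinone synthesis (0.70, adjusted p 0.00904) and Coq10b (-0.74, adjusted p 0.025). Cytochrome c, Cycs, rose by 0.42 (adjusted p 0.0374) and Etfb fell by 0.35 (adjusted p 0.043) in HFD+1B against chow, but neither passed with no background subtraction, with median centering, or with Cy5 alone, where Cycs was at 0.08.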

How the data were processed

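Liver RNA of 17 mice was measured against a common reference on 2-color Agilent arrays. The authors scanned the arrays with Agilent Feature Extraction (version 11.5.1.1 per the file headers) and deposited the median signal and background intensity of 45018 spots per array, of which 43379 were no controls. They also deposited a table of log2 ratios for 41146 probes, which was used as an alternative. For probes with a single spot it differed from the log2 ratio of the processed signals by at most 2.7e-06. Probes with several spots were not compared.

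Median intensities were background-corrected by normexp (offset 50) and normalized within each array by loess in limma (version 3.58.1, R version 4.3.3, data.table version 1.17.8). Control spots and spots marked as non-uniform or as population outliers were left out (3424 missing values among the probes tested), and spots of 1 probe were averaged. Probes well above background in Cy5 on at least 4 arrays were tested (34664 probes, 19358 genes). No Cy5 spot was saturated (0). A linear model over the 4 groups with empirical Bayes moderation left 13 residual degrees of freedom, and p values were adjusted by the Benjamini-Hochberg method over all probes. Each gene was given by its brightest probe in Cy5. For 15 members 1 or more mice lacked a value (22 values in all), and these mice were absent from the fit of that gene. The number of arrays limits the precision.

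Groups and mouse numbers came from the labels, and p values measure the spread between the arrays of different mice. That spread includes differences between slides, because the main fit had no slide term. The members and lists were chosen with earlier results of these data known. Named were core and catalytic subunits, pairs of isoforms, up to 5 called members per comparison and direction, members whose probes were called in opposite directions, members that are no subunit of the complex in their symbol, and up to 2 called genes per related list in HFD and in HFD+1B against chow. Ndufa3, Ndufa8, Ndufa11, Ndufb6, Ndufb8, Ndufb10, Sdhc, Sdhd, Uqcr10, Atp5k, Atp5f1, and the genes of related lists given only for HFD+1B against HFD were named after their values had been seen. Alternatives were no background subtraction, median centering, the authors' table, Cy5 alone with quantile normalization, other filters, the mean of all probes, slide or mouse number as a block, a 2-fold threshold, the analysis of variance with Tukey test of the methods, and leaving out each mouse. The fit was tested on simulated data. Promoters came from RefSeq. For 1 of the called members no values of its own are reported here.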

Additional observations from a re-analysis of the deposited data

Results flagged for a closer look

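Within groups of 4 or 5 mice, the gap between the most extreme mouse and its nearest neighbor, divided by the range of the group, was above Dixon's critical value for 2 of 114 groups of the named members. Chance alone gives about 1 in 20, or 5.7 of 114. Cox5a, a subunit of complex IV, had a ratio of 0.862 in 1B mice, where mouse 1 was at a log2 ratio of -0.21 and the other mice at 0.02 to 0.06. Cox6a2, the heart and muscle form of its subunit, had a ratio of 0.92 in HFD mice, where mouse 3 was at -0.47 and the other mice at -0.05 to -0.01. Neither gene was called in any comparison.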

How the results depend on the processing

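Counts of called members depended on the scaling and on single mice; causes were not tested, and counts not given here stayed within 1.5 times. With no background subtraction 1 member rose in HFD+1B against HFD (Cox6b2). With median centering HFD against chow had 0 higher and 3 lower (Atp5sl, Ndufb9, and Uqcr11), HFD+1B against HFD 1 higher (Cox7a1) and 1 lower (Atp5sl), and HFD+1B against chow 1 lower (Atp5sl). With the authors' ratios, Cox6b2 was called in the interaction (1 higher) and in HFD+1B against HFD (1 higher), and 1 was lower in HFD+1B against chow. With Cy5 alone 0 were lower in 1B and 0 higher in HFD against chow, 1 was lower in HFD+1B against HFD (Ndufs8), and 0 higher and 1 lower in HFD+1B against chow. Reversed were Ndufa10 in HFD against chow (-0.04 with median centering, -0.06 with Cy5 alone) and Mrps12 (-0.14 with Cy5 alone).

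With probes above background on all 17 arrays, or the mean of all probes, 1 was higher in 1B against chow (Ndufa8). The mean also gave 1 lower in HFD (Atp5sl) and 2 in the interaction (Ndufa8 and Ndufs8), and no filter 2 higher in HFD+1B against chow. At 2-fold all counts were 0. The Tukey test gave 1 higher in 1B and 2 in HFD+1B against chow, and after adjustment 0 higher in HFD, 3 lower in HFD+1B against HFD, and 0 higher in HFD+1B against chow. With the slide as a block 8 were lower in HFD+1B than in HFD. Shares over all genes were not computed for these filters, the mean of all probes, the Tukey test, the blocks, or the fits without 1 mouse.

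Mouse numbers do not pair the mice by the labels, and same-numbered mice correlated at -0.13 to 0.48 (24 pairs, median 0.18). Pairs of different number had a median of -0.05, pairs on the same slide 0.20, and pairs on different slides -0.04. Numbers and slides overlap in part, with all mice of number 1 on slide 1. With the number as a replicate block 1 was higher in 1B and 7 in HFD against chow, 10 were lower in HFD+1B against HFD, 5 in HFD+1B against chow, and 3 in the interaction.

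Leaving out each mouse gave 0 to 1 higher and 1 to 1 lower in 1B against chow, 0 to 5 higher and 0 to 0 lower in HFD against chow, 0 to 1 higher and 4 to 9 lower in HFD+1B against HFD, 1 to 1 higher and 1 to 5 lower in HFD+1B against chow, and 0 to 0 positive and 0 to 3 negative in the interaction. Without HFD+1B mouse 5 the counts were 1 higher in 1B, 5 higher in HFD, 9 lower in HFD+1B against HFD, 5 lower in HFD+1B against chow, and 3 negative in the interaction. HFD against chow had 0 higher without chow mouse 1 and 1 without HFD mouse 1, 2, or 3. HFD+1B against HFD had 8 lower without HFD mouse 1 and 1 higher without HFD mouse 4, 1B had 1 higher without HFD+1B mouse 1, and HFD+1B against chow had 1 lower without chow mouse 2 or 3.

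Of 4474 values of named genes under other settings, 4235 kept their side of the threshold, 208 lost a call, and 28 gained one. A further 3, called in the main fit or under the setting, reversed direction. For values called in neither fit a change of direction was not counted. It did occur, as for Cox4i1 in HFD against chow (-0.29 to 0.28 over the settings). The call of Atp5sl in HFD+1B against chow was kept in 17 of 17 fits without 1 mouse and in 11 of 11 other settings apart from the 2-fold threshold, where it was lost, and that of Ndufs8 in HFD+1B against HFD in 17 and 10.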
